A study of Danio rerio with 6 samples.

Results

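A set of 7 genes of the p53 pathway and of growth arrest was read from whole zebrafish embryos, and 6 of the 7 were on the array under a gene symbol of their own. A gene was included when its symbol was the only one the platform annotation gave to a probe set, a group of short probes for 1 transcript. The genes mdm2, mdm4, ccng1, ddit4, casp8 and gadd45aa had 1 probe set each, and no probe set was named cdkn1a, so that gene is not analysed here. These 6 genes stand among 8793 genes named on the array. The embryos were 25 hours post fertilization (hpf) and came from 2 groups with 3 arrays each. One group carried a null mutation labelled prdm1, which the series design calls prdm1a, and was picked out by eye for its phenotype. The other group was picked as wild type in the same way and carried no treatment or transgene that the labels name. The sources used here give neither the allele nor the number of embryos per RNA sample, nor whether the wild-type group held heterozygous carriers. Prdm1a is a transcription factor with zinc fingers, required for cell fates in the neural crest, in slow muscle and among sensory neurons. The question is how transcript levels differ in its absence, and no probe set was named prdm1a to check the labels.

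The transcription factor p53 is held at a low level in unstressed cells and is stabilised by DNA damage and other stress. It then switches on genes that halt the cell cycle, repair DNA or start apoptosis. Mdm2 is the ubiquitin ligase that marks p53 for destruction, and its relative Mdm4 binds p53 and blocks its activity as a transcription factor. Both are needed to keep p53 in check in mouse embryos, and mdm2 is itself a p53 target, which closes a feedback loop. In zebrafish, loss of mdm2 kills embryos through p53.

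Markers of tissues throughout the embryo were measured. All 24 tissue markers that had a named probe set (muscle, neurons, red blood cells, skin, notochord, eye and vessels) lay above the level used as a filter on dim probe sets, a log2 signal of 5.36. A slow muscle myosin gene, smyhc1, was lower in the mutant by a log2 fold change of -2.98 (limma adjusted p = 2.8e-05), and the neural crest gene crestin was lower by a log2 fold change of -1.88 (limma adjusted p = 0.00124). Another neural crest gene, sox10, was lower by a log2 fold change of -0.95 (limma adjusted p = 0.0227). Smyhc1, crestin and sox10 were listed for cell types that differ between the groups, so they are not an independent check. Wild-type arrays correlated with one another at 0.948 to 0.976 and mutant arrays at 0.967 to 0.969. Arrays of different groups correlated at 0.923 to 0.949, a range that overlapped that of the wild type. The gapdhs 3' over 5' signal ratio, a sign of RNA quality, lay between 3.28 and 7.65 on mutant arrays and between 9.16 and 14.5 on wild-type arrays (two-sided exact permutation p = 0.1, the lowest possible with 3 arrays against 3). That of actc1b lay between 26.2 and 38.8 and between 55.4 and 92.4. Both ratios thus moved with genotype, and the values of the members with them as a covariate are given beside each call.

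In the mutant, ddit4 and mdm4 were lower and the other tested members, mdm2 and ccng1, did not pass the test. The stress gene ddit4 was 4.82-fold lower when its mutant signals, all dimmer than the filter level explained above, were set to that level (10.03-fold as measured), and the p53 inhibitor gene mdm4 was 1.76-fold lower, while the feedback target mdm2 and the cyclin gene ccng1 were within a log2 fold change of 0.1 of no difference. No tested member was higher in limma, either at an adjusted p under 0.05 or at an unadjusted p under 0.05. Over all 10851 probe sets tested, 3.39% passed in either direction, 1.54% as higher and 1.85% as lower, beside 2 of the 4 tested members, both lower. The members were picked with earlier results of these arrays known, so their count is not a test against that share. Of the 2, ddit4 passed the filter only through its wild-type arrays, and mdm4 lay at the edge of the threshold. Gadd45aa and casp8 lay below the filter on every array and were not tested. In whole embryos, fewer cells of a type and less RNA per cell cannot be told apart.

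**Figure D1:**
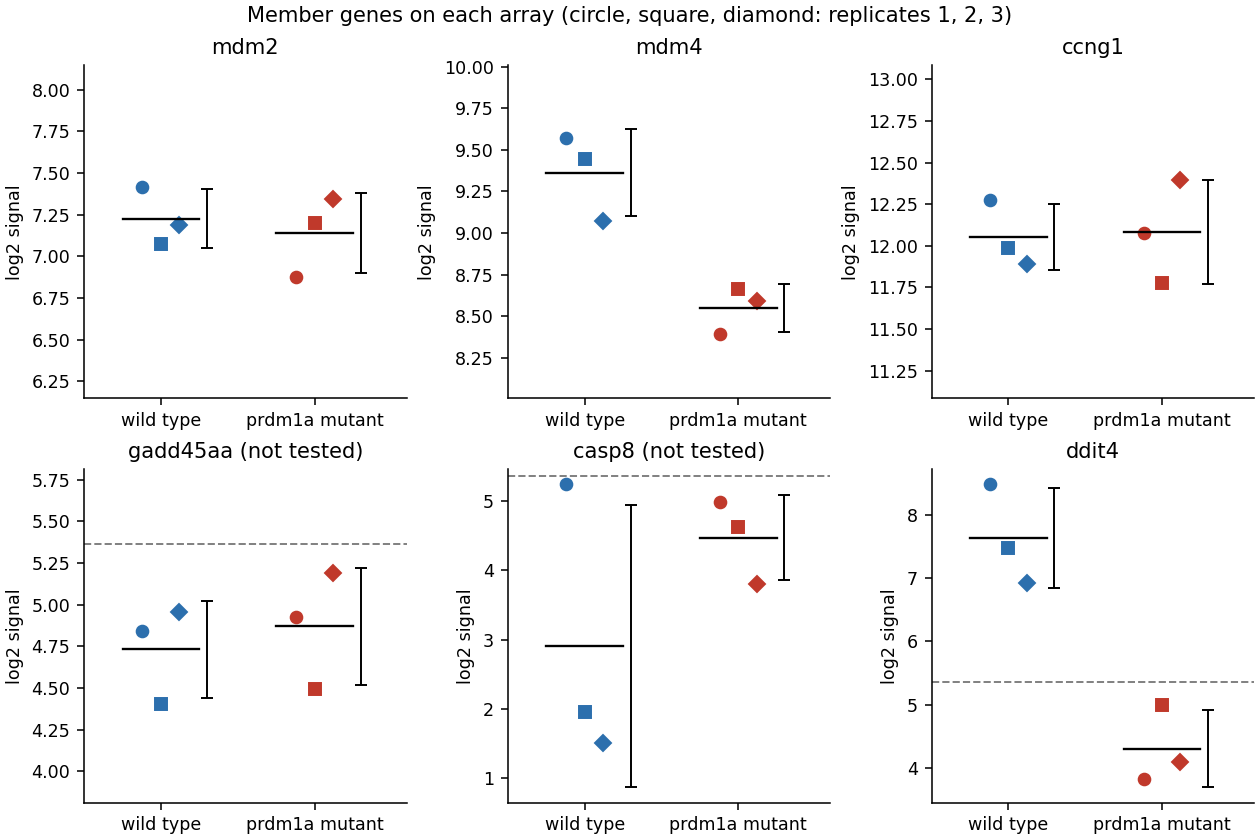
Each panel plots the log2 signal of 1 member gene on the 3 wild-type arrays (blue) and the 3 mutant arrays (red), with circle, square and diamond for replicates 1, 2 and 3, a line at the mean and a bar of ± 1 SD beside it. The dashed line marks the filter level of 5.36. Each panel has its own vertical scale. The arrays of the 2 groups separate for mdm4 and ddit4 and overlap for the other 4 genes. Of all probe sets tested, 27.0% separate in either direction, 13.8% with every mutant array lower.

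Of the p53 regulators mdm2 and mdm4, only mdm4 was called lower, and 12 of 18 alternative settings at the same threshold ended that call. The log2 signal of mdm4 was 8.39, 8.67 and 8.59 on the mutant arrays of replicates 1, 2 and 3, and 9.57, 9.44 and 9.07 on the wild-type arrays. Every mutant array was below every wild-type array, and the nearest pair, mutant replicate 2 and wild type replicate 3, lay 0.40 apart. Mean signals were 376 ± 36.2 for the mutant and 665 ± 115 for the wild type (SD, n = 3 each). The log2 fold change was -0.81 (SE 0.18, 95% confidence interval -1.22 to -0.40, limma adjusted p = 0.0471). Over all probe sets tested, 27.0% had groups that did not overlap in this way, 13.8% with every mutant array lower and 13.2% with every mutant array higher.

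The mdm4 call sat at the edge of the threshold. It held with only wild type replicate 3 left out (limma adjusted p = 0.0209), and ended when any of the other 5 arrays was left out (limma adjusted p from 0.0901 to 0.174), while the log2 fold change ran from -0.96 to -0.71 over all left-out arrays. It ended as well after quantile normalization (limma adjusted p = 0.0520), after cyclic loess (0.0533), without the filter (0.0505) and without the variance trend (0.0775). With replicate number as a block the call also ended (limma adjusted p = 0.0855), though same-numbered arrays were not taken as pairs. With the gapdhs ratio as a covariate the log2 fold change was -0.99 (limma adjusted p = 0.271), and with the actc1b ratio -1.06 (limma adjusted p = 0.315). The ratios and genotype cannot be told apart over these 6 arrays.

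The other regulator, mdm2, gave no call. Its log2 signal was 6.88, 7.20 and 7.35 in the mutant and 7.42, 7.08 and 7.19 in the wild type. The groups overlapped, with the lowest value on mutant replicate 1 and the highest on wild type replicate 1. The log2 fold change was -0.09 (SE 0.23, 95% confidence interval -0.59 to 0.42, limma adjusted p = 0.865), which leaves room for a level up to 1.34-fold higher or 1.51-fold lower in the mutant. That interval takes no account of the RNA quality ratios. With the gapdhs ratio as a covariate the log2 fold change of mdm2 was -0.36 (limma adjusted p = 0.788). With the actc1b ratio it was 0.08 (limma adjusted p = 0.963).

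Within each array, mdm4 was lower relative to mdm2 in the mutant, in a test that cannot reach 0.05. The log2 signal of mdm4 minus that of mdm2 was 1.52, 1.47 and 1.25 on the mutant arrays and 2.15, 2.37 and 1.88 on the wild-type arrays. No value was shared between the groups, and each mutant array was below each wild-type array. The means were 1.41 ± 0.14 and 2.14 ± 0.24 (SD, n = 3 each), a difference of -0.73 (two-sided exact permutation p = 0.1, again the lowest possible). A difference within an array removes any scaling common to both probe sets, and it can speak only to unequal change of the pair. Since the exact test could not reach 0.05, unequal change is not established. The difference rests on the same mdm4 values as the call above and is not separate support for that call. Over left-out arrays the difference ran from -0.85 to -0.61.

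Ddit4 was the member that changed most. It encodes a small stress protein, also called Redd1, that in mammals restrains the growth kinase mTORC1 through the Tsc1-Tsc2 complex and is switched on by DNA damage, low oxygen and glucocorticoids. Its signal was 14.2, 32.0 and 17.1 on the mutant arrays of replicates 1, 2 and 3, and 358, 179 and 122 on the wild-type arrays. Every wild-type array was brighter than every mutant array, by 3.81-fold for the nearest pair and 25.3-fold for the farthest. Such a separation, with every mutant array lower, held for 13.8% of all probe sets tested. All 3 mutant arrays were below the filter level, a signal of 41.1, and all 3 wild-type arrays were above it.

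On the log2 scale the mutant mean of ddit4 was 4.31 ± 0.61 and the wild-type mean 7.63 ± 0.79 (SD, n = 3 each). The log2 fold change was -3.33 (SE 0.46, 95% confidence interval -4.37 to -2.28, limma adjusted p = 0.00631). As measured this is a 10.03-fold lower level, but the mutant signals are not shown to be above background, and the probe set passed the filter only through its wild-type arrays. The size depends on how dim values are treated. With each mutant array raised to the filter level the mutant was 4.82-fold lower. With 16 added to every signal before the log it was 5.95-fold lower (limma adjusted p = 0.00656), and with 64 added 3.15-fold lower (limma adjusted p = 0.0105).

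The ddit4 call held with each of the 6 arrays left out in turn (limma adjusted p from 0.00646 to 0.0433), with log2 fold changes from -3.68 to -2.90. The mutant values in these fits were the same dim ones, all below the filter level of the reported setting. The repeated passes are therefore not separate support for the call. They do not show that the mutant signals were above background. The ddit4 call ended with the gapdhs ratio as a covariate, where the log2 fold change was -3.51 (limma adjusted p = 0.135), and with the actc1b ratio, where it was -3.81 (limma adjusted p = 0.183). Within the wild type, the array with the highest gapdhs ratio had the lowest ddit4 and mdm4 signal, and the array with the lowest ratio had the highest. Within the mutant, the array with the highest gapdhs ratio, replicate 2, had the highest signal of both genes, and the actc1b ratios (26.2, 38.8 and 35.8 for replicates 1, 2 and 3) followed the order of both genes. The ratios did not overlap between the groups, and their part in the ddit4 and mdm4 results cannot be told apart from that of genotype.

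**Figure D2:**
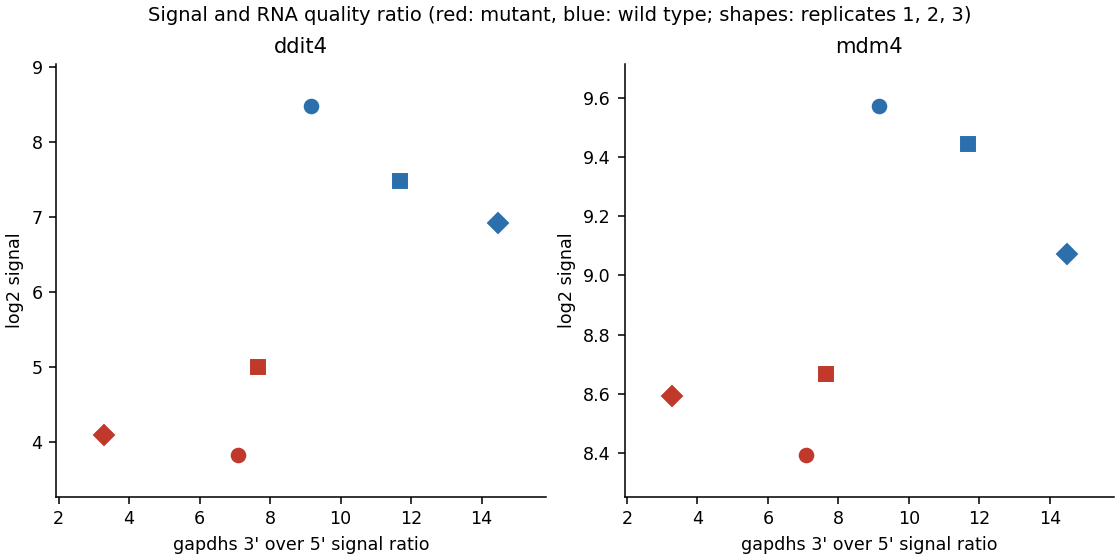
The log2 signal of ddit4 (left) and mdm4 (right) is plotted against the gapdhs 3' over 5' signal ratio of the same array, with mutant arrays in red, wild-type arrays in blue, and circle, square and diamond for replicates 1, 2 and 3. The mutant arrays have ratios of 3.28 to 7.65 and the wild-type arrays 9.16 to 14.5, within the wild type the signals of both genes are lower where the ratio is higher, and within the mutant the array with the highest ratio has the highest signals.

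The cyclin gene ccng1 gave no call. Cyclin G1 is a p53 target that in mammals brings a phosphatase to Mdm2. Its log2 signal was 12.08, 11.77 and 12.40 in the mutant and 12.28, 11.99 and 11.89 in the wild type. The groups overlapped, and mutant replicates 2 and 3 gave the lowest and the highest of all 6 values. The log2 fold change was 0.03 (SE 0.17, 95% confidence interval -0.36 to 0.43, limma adjusted p = 0.939), so a level over 1.34-fold higher or over 1.29-fold lower in the mutant lies outside the interval. With the gapdhs ratio as a covariate it was -0.44 (limma adjusted p = 0.489), and with the actc1b ratio -0.29 (limma adjusted p = 0.769).

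Gadd45aa and casp8 were too dim to compare. Gadd45 proteins are stress-induced inhibitors of cell cycle progression, and the gadd45aa log2 signal was 4.93, 4.49 and 5.19 in the mutant and 4.84, 4.40 and 4.95 in the wild type. Both groups lay below the filter level of 5.36 and overlapped. Caspase 8 is the initiator protease of death receptor signalling, and the casp8 log2 signal was 4.99, 4.63 and 3.80 in the mutant and 5.24, 1.96 and 1.51 in the wild type. Wild type replicate 1 was above all mutant arrays and the other wild-type arrays were below them, so the groups overlapped, with an SD of 2.04 in the wild type and 0.61 in the mutant. These values do not show that either transcript was absent, and no fold is given between them.

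**Figure D3:**
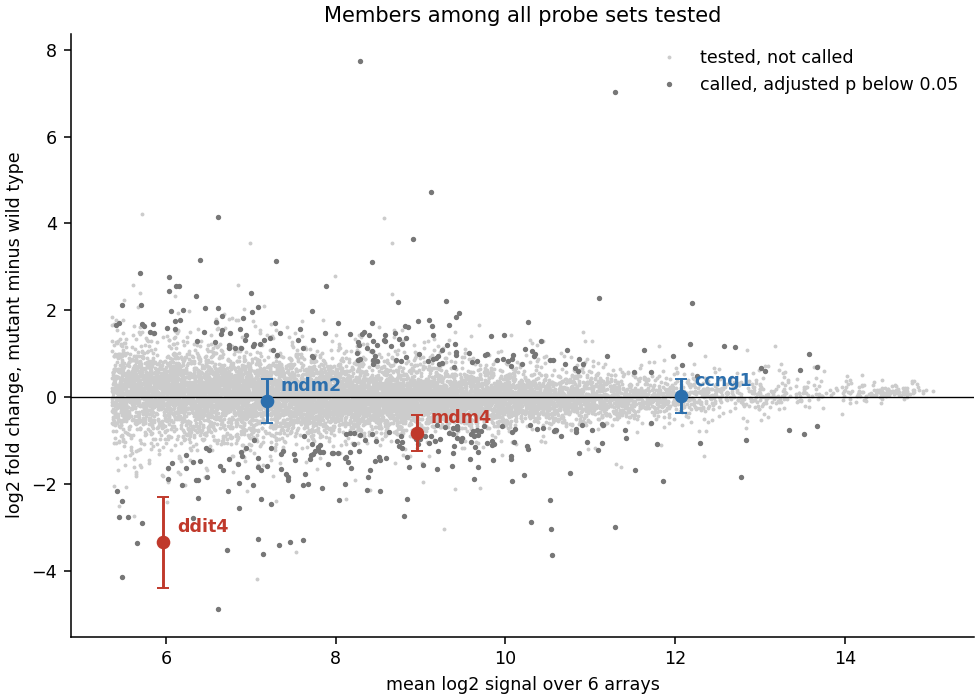
The log2 fold change (mutant minus wild type) is plotted against the mean log2 signal over the 6 arrays for all 10851 probe sets tested, with those at an adjusted p under 0.05 in dark grey. The 4 tested members have bars for the 95% confidence interval, red where called and blue where not. Ddit4 lies near the dim end at -3.33, mdm4 at -0.81, and mdm2 and ccng1 have intervals that span 0.

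Within the wild type, replicate 1 was high for most members. Of the 6 measured members, 5 had their highest wild-type value on replicate 1 and 1 on replicate 3, while 4 had their lowest on replicate 3 and 2 on replicate 2. In the mutant the highest value was on replicate 3 for 3 members, on replicate 2 for 2 and on replicate 1 for 1. These counts include gadd45aa and casp8, which lay below the filter. The same order over all probe sets was not counted, so it is not shown to be particular to the members. None of the members lies among the 100 genes to either side of prdm1a in the RefSeq gene order of the GRCz12tu assembly.

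The named genes whose pattern over the 6 arrays was most like that of ddit4 were gskip, which encodes a protein that binds the kinase Gsk3 (Pearson r = 0.993), pex19, a peroxisome import gene (0.991), and eaf2, a gene of a transcription elongation partner (0.990). Those most like mdm4 were gskip (0.994), the tRNA-modifying enzyme gene dus2 (0.994) and the chaperone gene hspa4b (0.994). These correlations are descriptions over 6 arrays that share the genotype difference, and they were picked as the highest among all named probe sets tested. Of these genes gskip was called, at a log2 fold change of -0.73 (limma adjusted p = 0.0252), and dus2 (-0.63), hspa4b (-0.49), pex19 (-0.54) and eaf2 (-0.54) did not pass (limma adjusted p from 0.0674 to 0.121).

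Outside the members, no gene of the wider p53 pathway passed. Of 136 further genes listed for the pathway, 85 had a named probe set and 77 were tested, each by its brightest probe set. None was called in limma at an adjusted p under 0.05, beside 3.39% of all probe sets tested, a share at which few calls would be looked for among 77. An unadjusted p under 0.05 was found for 10 of the 77, against 2232 of all 10851 probe sets (20.6%). The median log2 fold change of the 77 was -0.01, with 38 above 0 and 39 below, beside 0.02 over all probe sets tested. Groups did not overlap for 18 of them, 9 higher and 9 lower, which is 23.4% beside 27.0% of all probe sets tested.

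**Figure D4:**
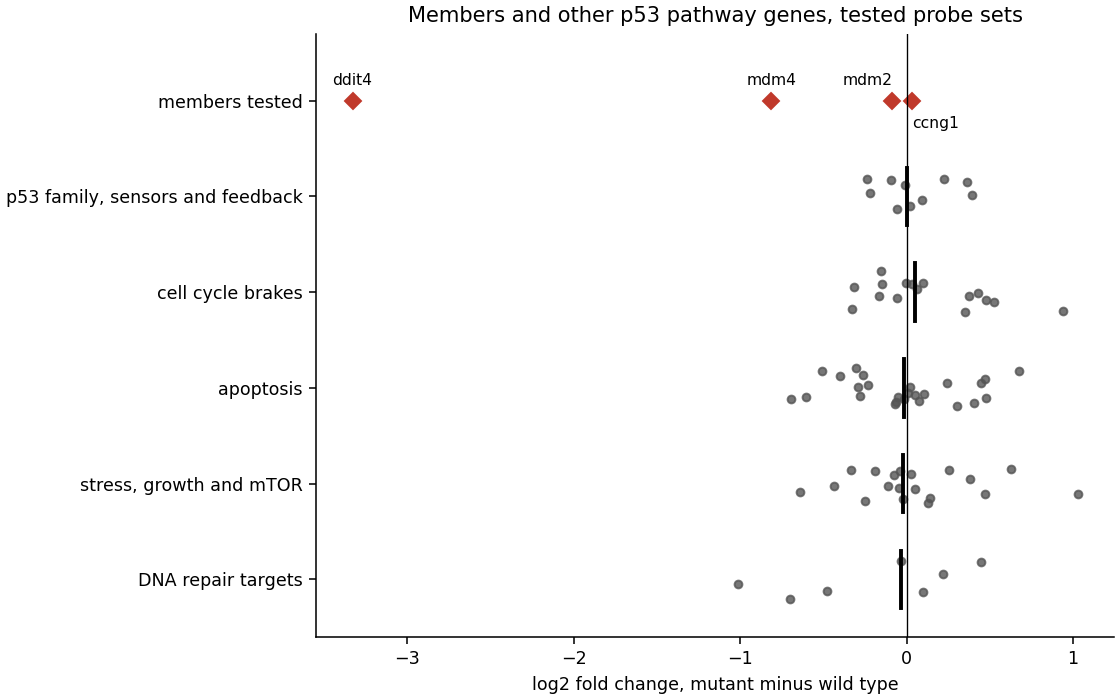
Each point is the log2 fold change (mutant minus wild type) of 1 gene at its brightest tested probe set, with the 4 tested members as red diamonds and 5 lists of other pathway genes below, each with its median as a black bar. The lists lie between -1.01 and 1.03 with medians between -0.03 and 0.05, and ddit4 lies at -3.33.

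In the list of the p53 family, its sensors and its feedback genes, 10 genes were tested with a median log2 fold change of 0.00. The smallest p-values belonged to the ribosomal protein genes rpl5a (0.40, limma adjusted p = 0.0674) and rpl5b (0.37, limma adjusted p = 0.157), whose protein in mammals binds and inhibits Mdm2. The log2 signal of rpl5a was 14.24, 14.37 and 14.18 in the mutant and 13.93, 13.88 and 13.79 in the wild type. The mutant arrays were higher on every comparison for both genes, without a call for either. A further ribosomal protein gene of the list, rpl11, chosen after its values were seen, was at 0.02 with overlapping groups (limma adjusted p = 0.948). The checkpoint kinase genes chek1 (-0.01) and chek2 (-0.06), chosen after their values were seen, lay close to 0.

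Among cell cycle brakes, 16 genes were tested with a median log2 fold change of 0.05. The smallest p-values belonged to gadd45bb, a relative of gadd45aa (0.94, limma adjusted p = 0.242), and cdkn1ca, which encodes an inhibitor of cyclin-dependent kinases (0.43, limma adjusted p = 0.269). On the arrays, gadd45bb was at a log2 signal of 6.26, 7.07 and 7.22 in the mutant and 5.76, 5.28 and 6.70 in the wild type, and the groups overlapped through wild type replicate 3. The other gadd45 genes tested, chosen after their values were seen, were gadd45ba at 0.53, gadd45ab at 0.38 and gadd45ga at -0.01, and none passed (limma adjusted p from 0.290 to 0.990). At the brightest probe set of each gene, gadd45ba was the 1 of the 16 whose groups did not overlap, with every mutant array higher. Of all probe sets tested, 27.0% did not overlap. The cyclin gene ccng2, a relative of ccng1 also chosen after its values were seen, was at 0.06 at its brighter probe set (limma adjusted p = 0.857). Its dimmer probe set was at 0.67 with every mutant array higher and did not pass either (limma adjusted p = 0.09999).

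Among apoptosis genes, 25 were tested with a median log2 fold change of -0.01. The smallest p-values belonged to 2 genes of the inhibitor of apoptosis family, birc2 at -0.51 (limma adjusted p = 0.0626) and birc5a, which encodes the mitotic protein survivin, at 0.40 (limma adjusted p = 0.0881). For birc2 the log2 signals were 10.14, 10.06 and 10.07 in the mutant and 10.69, 10.59 and 10.52 in the wild type. The groups did not overlap, yet the change missed the threshold. Over the list, every mutant array was below every wild-type array for 5 genes and above for 4. That is 36.0% of the 25, beside 27.0% of all probe sets tested (13.8% lower and 13.2% higher), where such separation was common. The former are birc2, phlda3 (-0.69), baxa (-0.29), tp53inp1 (-0.28) and aifm2 (-0.23). The latter are birc5a, the caspase gene caspa (0.67), the pro-apoptotic gene bida (0.30) and birc5b (0.45). Those other than birc2 and birc5a were chosen after their values were seen, and none of those named passed (limma adjusted p from 0.0626 to 0.439). The pro-apoptotic p53 target bbc3, also chosen so, was at -0.01 with overlapping groups.

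Among stress, growth and mTOR genes, which include the pathway that ddit4 acts on, 19 were tested with a median log2 fold change of -0.02. The smallest p-values belonged to eif4ebp2, which encodes a translation repressor controlled by mTORC1 (-0.44, limma adjusted p = 0.118), and sesn3, a gene of the sestrin family that restrains mTORC1 (0.63, limma adjusted p = 0.132). On the arrays, sesn3 was at a log2 signal of 10.90, 11.55 and 11.13 in the mutant and 10.23, 10.82 and 10.64 in the wild type, the opposite direction to ddit4. The mTORC1 genes mtor (-0.02) and rheb (-0.07), and tsc1a (-0.64), chosen after their values were seen, had overlapping groups and did not pass (limma adjusted p from 0.594 to 0.971). A pair of genes that share inducers with ddit4 in mammals, both chosen after their values were seen, did not pass either. The glucocorticoid target fkbp5 was at 0.14 (SE 0.32) and the low-oxygen target egln3 at 0.26 (SE 0.43). Each standard error was larger than the change itself, so these genes do not show whether the inducers differed between the groups. That was not tested.

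In the list labelled DNA repair targets, 7 genes were tested with a median log2 fold change of -0.03. The smallest p-values belonged to ddb2 and xpc, genes of damage-recognition proteins in nucleotide excision repair. Ddb2 was at -1.01 (SE 0.29, limma adjusted p = 0.0914) and xpc at -0.70 (SE 0.23, limma adjusted p = 0.135). The log2 signal of ddb2 was 6.58, 6.60 and 7.51 in the mutant and 7.88, 8.14 and 7.72 in the wild type. Mutant replicate 3 stood nearest the wild type, so leaving it out widened the gap. Without it ddb2 passed at a log2 fold change of -1.32 (limma adjusted p = 0.0434). With any other single array left out ddb2 did not pass, so that pass is not separate support for a lower level. A second xpc probe set, below the filter, was at -1.06 and was not tested.

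**Figure D5:**
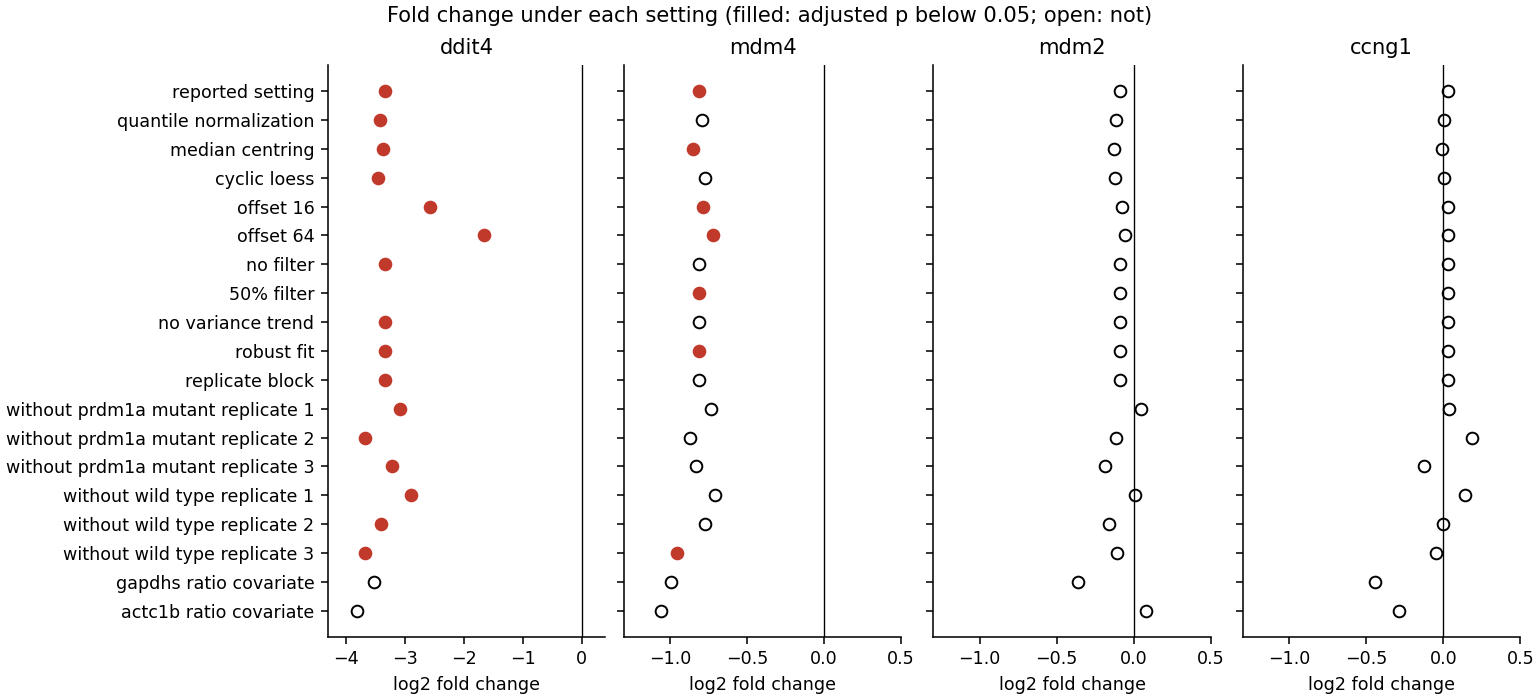
The log2 fold change (mutant minus wild type) of the 4 tested members is plotted for the reported setting and each alternative, with filled red points at an adjusted p under 0.05 and open points otherwise. The horizontal scale of ddit4 differs from that of the other 3 genes, and ddit4 has no point under the 50% filter, which left it out. Ddit4 stays between -3.81 and -1.66 and mdm4 between -1.06 and -0.71, while mdm2 and ccng1 fall on both sides of 0.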

How the data were processed

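MAS5 produced the deposited linear intensities, 1 per probe set and array, per the submitters' processing notes. The sources used here state no version, no scaling target and no detection calls for it. Arrays were comparable in scale, with trimmed means near 500 and medians between 132 and 148. These intensities were taken to log2 with no further scaling. Control probe sets (115) were removed, as was the dimmest 30% of the remaining 15502 by mean log2 signal. The 10851 left were tested in R 4.3.3 with limma 3.58.1, using lmFit and eBayes with a variance trend on level, a model of genotype alone, and a Benjamini-Hochberg threshold of 0.05 over all of them. The fit was tested on simulated data. Names came from the platform annotation, with 10802 probe sets carrying 1 symbol, updated through RefSeq. No sequence is printed.

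The members and lists were chosen with earlier results of these data known. By rule, genes named outside the members are those with the 2 smallest p-values in each list and the 3 most alike by Pearson correlation. Smyhc1, crestin and sox10 were listed for cell types that differ between the groups. Others are said to be chosen after their values were seen, apart from genes named for a pass under an alternative setting. Alternatives were other normalizations, offsets, filters, variance models and thresholds, a replicate block, single arrays left out, and RNA quality ratios as covariates. Nothing in the labels says that replicates were separate clutches, and the p-values then reflect only the spread among these samples, which may be technical.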

Additional observations from a re-analysis of the deposited data

How the results depend on the processing

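Of the members, 2 were called lower and none higher. The number lower was 1 after quantile normalization, cyclic loess, without the filter, with the 50% filter, without the variance trend and with the replicate block, and 0 with either 3' over 5' ratio as a covariate, and it ran from 1 to 2 over left-out arrays. The 50% filter left ddit4 out of the test; elsewhere than with the covariates its call held, and it was the mdm4 call that ended. No called value changed sign. Over all probe sets, 167 were higher and 201 lower. These counts ran from 46 to 260 and from 62 to 200 over left-out arrays, and were 16 and 28 with the gapdhs ratio, 16 and 10 with the actc1b ratio, and 374 and 437 at an adjusted p under 0.10. Among left-out arrays, the fewest passed without wild type replicate 2 and the most higher without wild type replicate 3. Of the wider pathway genes, 0 to 1 were higher and 0 to 1 lower over left-out arrays (atf3 higher without wild type replicate 3, ddb2 lower without mutant replicate 3). At an adjusted p under 0.10 there were 2 higher (rpl5a, birc5a) and 2 lower (birc2, ddb2). These counts read each gene at its brightest probe set, and leave out the dimmer ccng2 probe set, higher at a limma adjusted p of 0.09999.

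Replicate numbers were shared between groups, but deviations from the group means correlated at 0.06, 0.05 and -0.07 for same-numbered arrays, so the numbers were not taken as pairs. With the replicate block ddit4 passed (limma adjusted p = 0.0192) and mdm4 did not (0.0855). The precision is limited by 6 arrays: standard errors of the log2 fold changes had a median of 0.222. Without detection calls, dim values such as ddit4 in the mutant have no stated background.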
